A study of Mus musculus with 6 samples.

Results

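Metallothioneins and zinc transporters were followed in the calvaria, the roof of the skull, of newborn mice, taken with the interparietal and occipital bone and without ear cartilage. The 9 genes are the metallothionein genes Mt1, Mt2 and Mt3, the zinc sensor gene Mtf1, the zinc exporter genes Slc30a1 and Slc30a5 and the zinc importer genes Slc39a8, Slc39a13 and Slc39a14, out of 24346 gene names in the files. They were chosen by name, around the higher values of Mt3 in the libraries labelled Mutant, so the values of Mt3 are given as a description without a test, and the question put to the other 8 genes is whether they share its change. All 9 genes passed the filter of a mean of at least 1 FPKM (fragment counts divided by transcript length and by library size), as did 13180 names in all.

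The 3 libraries labelled Mutant came from newborns of the genotype Prx1-Cre;Pth1rfl/fl, and the 3 libraries labelled Flox_control from newborns of the genotype Pth1rfl/fl, so both groups carry floxed alleles of Pth1r and the first also carries the Cre transgene. Pth1r encodes a receptor for parathyroid hormone and its related protein, and Prx1-Cre is known to act in mesenchyme of the limbs and skull. An effect of the transgene itself and one of recombination cannot be told apart, since no control carries Cre. Strain, sex and whether a library pools animals are not given in the sources used here. With no statement that the numbered samples are separate animals, p-values measure only the spread between these libraries. Pth1r itself had 126.9, 124.9 and 142.2 FPKM in the libraries labelled Mutant, against 89.2, 93.3 and 102.0 FPKM in the Flox_control libraries. The floxed gene was therefore not lower in the libraries labelled Mutant, and every direction given here follows the labels and nothing else.

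Metallothioneins are small, cysteine-rich proteins that bind zinc and copper. When zinc rises in a cell, the zinc finger protein MTF1 binds metal response elements in promoters and switches on Mt1, Mt2 and Slc30a1, the exporter of the plasma membrane. Mt3 is best known from the brain and does not respond to metals in the way Mt1 and Mt2 do. Exporters of the Slc30 (ZnT) family move zinc out of the cytosol, and importers of the Slc39 (ZIP) family move it in. In mice, loss of Slc39a13 disturbs bone, teeth and connective tissue, loss of Slc39a14 reduces growth through the growth plate, and loss of Slc30a5 weakens bone.

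The metallothionein genes lie side by side within 43.1 kb on the plus strand of chromosome 8, in the order Mt4, Mt3, Mt2 and Mt1. On GRCm38, which is mm10, GENCODE M21 places them as follows: Mt3 spans chr8:94152607-94154146, Mt2 spans chr8:94172664-94173568 and Mt1 spans chr8:94179082-94180327. Because metals act on Mt1, Mt2 and Slc30a1 through short promoter elements, the promoters of Mt3, which was higher, and of Mt1, Mt2 and Slc30a1, for which no difference was called, are shown together. Each is the stretch from 250 bases before to 30 bases after the start annotated by RefSeq on GRCm38.p6, on the plus strand, with capitals for the core of a metal response element (TGCACNC or TGCGCNC on either strand). The stretches lie at chr8:94152357-94152636 for Mt3, chr8:94178839-94179118 for Mt1, chr8:94172368-94172647 for Mt2 and chr1:191906531-191906810 for Slc30a1.
Mt3: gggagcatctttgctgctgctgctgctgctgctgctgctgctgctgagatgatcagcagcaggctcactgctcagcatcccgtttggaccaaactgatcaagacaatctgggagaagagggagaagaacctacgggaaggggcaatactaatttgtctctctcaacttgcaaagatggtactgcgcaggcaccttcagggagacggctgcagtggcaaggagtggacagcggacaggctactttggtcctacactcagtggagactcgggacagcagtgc
Mt1: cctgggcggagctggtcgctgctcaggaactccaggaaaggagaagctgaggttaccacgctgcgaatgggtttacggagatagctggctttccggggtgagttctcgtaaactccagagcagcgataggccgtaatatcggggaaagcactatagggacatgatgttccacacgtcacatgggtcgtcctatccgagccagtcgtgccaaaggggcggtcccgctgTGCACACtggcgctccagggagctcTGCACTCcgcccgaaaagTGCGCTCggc
Mt2: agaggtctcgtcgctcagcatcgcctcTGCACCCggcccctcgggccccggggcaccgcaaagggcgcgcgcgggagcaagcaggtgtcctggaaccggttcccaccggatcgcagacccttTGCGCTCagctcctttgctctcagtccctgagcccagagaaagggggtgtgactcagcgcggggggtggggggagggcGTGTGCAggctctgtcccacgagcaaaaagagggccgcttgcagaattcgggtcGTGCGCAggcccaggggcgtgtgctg
Slc30a1: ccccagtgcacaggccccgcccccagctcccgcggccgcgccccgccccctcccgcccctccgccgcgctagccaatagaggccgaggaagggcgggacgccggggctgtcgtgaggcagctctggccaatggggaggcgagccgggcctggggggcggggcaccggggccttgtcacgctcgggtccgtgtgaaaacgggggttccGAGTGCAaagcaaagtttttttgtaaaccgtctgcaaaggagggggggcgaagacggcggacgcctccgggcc
The core occurred 0 times in the stretch of Mt3, 3 times in that of Mt1, 4 times in that of Mt2 and 1 time in that of Slc30a1, and no copies overlapped each other. Of 32851 promoter stretches of the same length, 24.1% held at least 1 copy, 1.73% at least 3 and 0.405% at least 4. The full window of 300 bases, which runs past the printed stretch, held 1 copy for Mt3 and 2 for Slc30a1, and 25.7% of all such windows held at least 1. GENCODE also annotates starts 139 bases further on for Mt3, 122 and 152 for Mt1, 46 and 242 for Mt2 and 475 for Slc30a1. Parts of the 250 bases before those starts, and all of them for Slc30a1, lie outside the stretches shown. The counts of the core in the stretches do not cover that sequence. A match of letters is a description and not a site shown to be bound.

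Mt3 was higher in every library labelled Mutant than in any Flox_control library. It had 54.8, 59.5 and 46.5 FPKM in the libraries labelled Mutant, against 15.2, 21.8 and 10.9 FPKM in the Flox_control libraries. The group means were 53.6 ± 6.59 FPKM in the libraries labelled Mutant and 15.97 ± 5.51 FPKM in the Flox_control libraries (SD, n = 3 each), or 3.36 times as much. The difference was 1.73 ± 0.23 (SE) on the log2(FPKM + 1) scale, and 0.137% of the 13180 tested genes had a difference at least as large and positive. These are the values for which the gene was chosen.

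**Figure D1:**
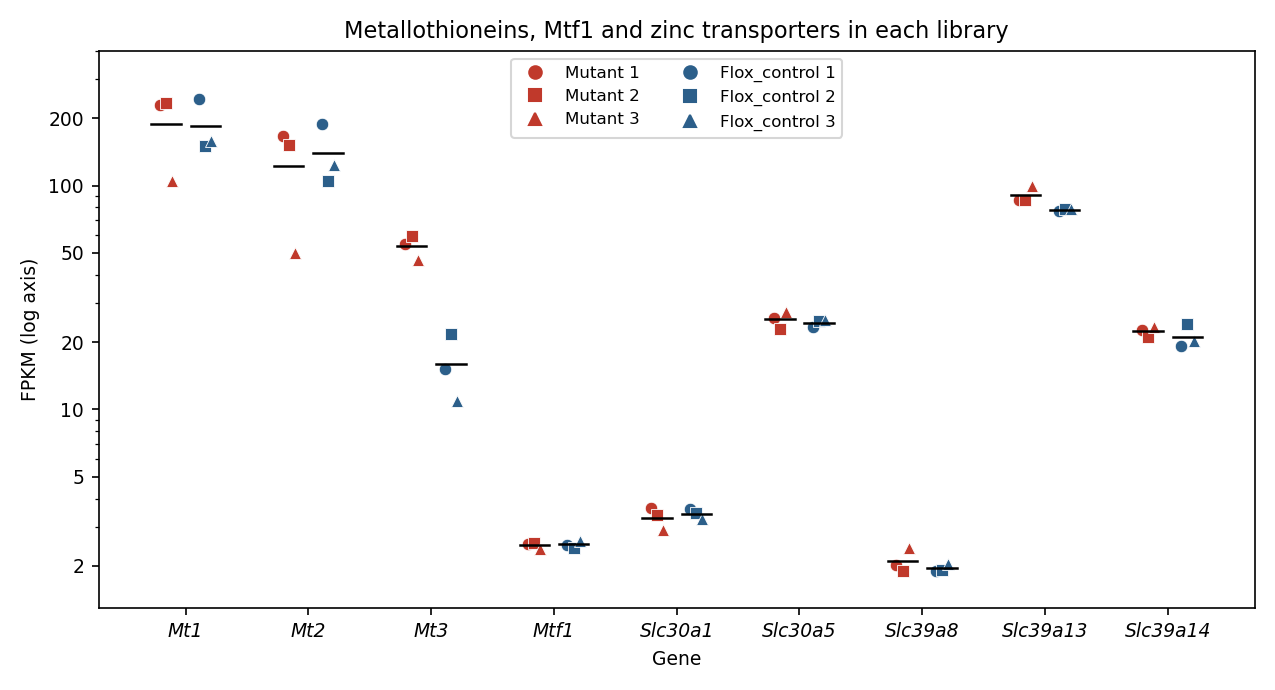
FPKM (log axis) of the 9 genes in each of the 6 libraries, with red points for libraries labelled Mutant, blue points for Flox_control, marker shapes for the replicate number and a black line at the group mean. Mt3 separates the groups, at 46.5 to 59.5 FPKM against 10.9 to 21.8 FPKM, whereas Mt1 and Mt2 overlap and the lowest value of both is that of the library labelled Mutant 3.

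No call was made among the other genes. In all, 0 of the 8 members other than Mt3 and 0 of the 16 tested exporters and importers passed the threshold of limma with Benjamini-Hochberg adjustment, whereas 0.607% of the 13180 tested genes did. At an unadjusted p under 0.05 there were 1 of the 8 members (Slc39a13) and 2 of the 16 transporters (Slc39a1 and Slc39a13), and 1388 of all tested genes. Groups that did not overlap were seen in 2 of the 16 transporters, both higher in the libraries labelled Mutant, and in 16.1% of all tested genes in either direction (9.34% higher). The share among the transporters is near that background.

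Mt1 and Mt2, the metallothioneins made in most tissues, showed no such separation. Mt1 had 229.4, 233.6 and 104.5 FPKM in the libraries labelled Mutant, against 242.8, 149.8 and 158.7 FPKM in the Flox_control libraries. Mt2 had 166.3, 152.4 and 49.9 FPKM in the libraries labelled Mutant, against 188.6, 104.8 and 123.9 FPKM in the Flox_control libraries. For both genes the lowest library was Mutant 3 and the highest was Flox_control 1, so the extremes of the 6 libraries fell on either side of the label and the groups overlapped. The difference of Mt1 on the log2(FPKM + 1) scale was -0.014 ± 0.33 (SE), with a 95% interval of -0.81 to 0.78 (limma, Benjamini-Hochberg adjusted p = 0.993). That of Mt2 was -0.31 ± 0.46 (SE), with a 95% interval of -1.40 to 0.78 (limma, Benjamini-Hochberg adjusted p = 0.893). Over all settings tried, the bounds reached from -1.11 to 1.05 for Mt1 and from -1.83 to 1.16 for Mt2. The sign of these small differences rested on single libraries. Without the library labelled Mutant 3, the difference was 0.37 for Mt1 and 0.24 for Mt2, and without Flox_control 1 it was 0.203 for Mt1 and -0.073 for Mt2.

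The balance of Mt1 and Mt2 was similar in most libraries. Mt1 was above Mt2 in 6 of 6 libraries, and the ratio of Mt2 to Mt1 in the libraries labelled Mutant was 0.725, 0.652 and 0.477, and in the Flox_control libraries 0.776, 0.7 and 0.781. The ratio was lowest in the library labelled Mutant 3, and the groups overlapped. Mt1 and Mt2 together had 395.7, 386.0 and 154.4 FPKM in the libraries labelled Mutant, against 431.4, 254.6 and 282.6 FPKM in the Flox_control libraries. Mt3 was a minor part of the 3 genes' summed FPKM, at 12.2%, 13.4% and 23.2% in the libraries labelled Mutant and 3.41%, 7.90% and 3.70% in the Flox_control libraries, so Mt1 and Mt2 made up most of the sum in each library. Mt4, the metallothionein of stratified epithelia, was listed at 0 in 5 libraries and at 0.881 FPKM in Flox_control 1.

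**Figure D2:**
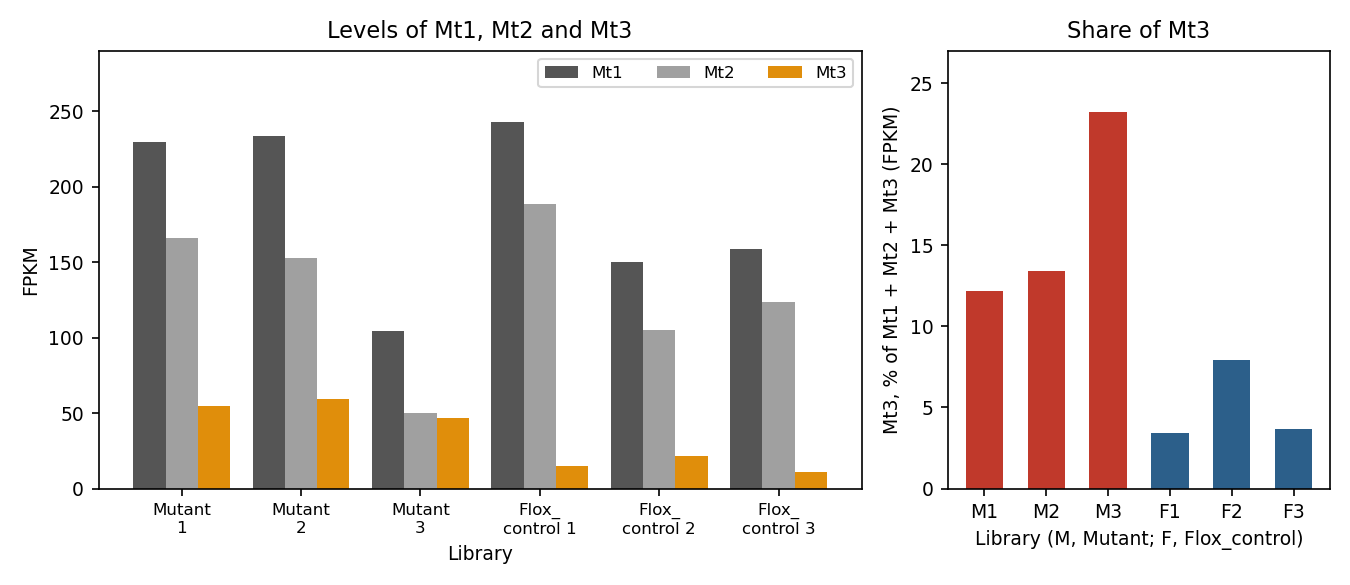
Left, FPKM of Mt1, Mt2 and Mt3 as bars in each of the 6 libraries; right, the FPKM of Mt3 as a percentage of the summed FPKM of the 3 genes, in libraries labelled Mutant (M1 to M3) and Flox_control (F1 to F3). The share of Mt3 is 12.2% to 23.2% in the libraries labelled Mutant and 3.41% to 7.90% in the Flox_control libraries, and its highest value falls where Mt1 and Mt2 are lowest.

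The genes next to the cluster were also compared, as a set chosen by position after the values of the cluster were known. Of the 5 tested genes nearest on each side, from Gnao1 to Rspry1, 0 of 10 passed the threshold (limma, lowest Benjamini-Hochberg adjusted p = 0.371). Of all tested genes, 0.607% did. The log2 differences of the 10 neighbours ran from -0.099 to 0.21. Bbs2 and Nup93, the nearest tested genes on the left and right, had differences of 0.16 ± 0.079 and -0.0022 ± 0.065 (SE). No stretch of 50 bases of the annotated Mt1, Mt2 or Mt3 transcripts occurred in a transcript of another gene. Mt2 is overlapped by the antisense gene Gm45774, and with the strand setting of the counting not stated, reads from the stretch they share cannot be told apart.

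Mtf1, the gene of the zinc sensor, differed little between libraries. It had 2.51, 2.52 and 2.38 FPKM in the libraries labelled Mutant, against 2.49, 2.42 and 2.59 FPKM in the Flox_control libraries, with overlapping groups. Its log2 difference of -0.011 ± 0.081 (SE) had a 95% interval of -0.202 to 0.18 (limma, Benjamini-Hochberg adjusted p = 0.981). Mtf1 overlaps 1110065P20Rik on the other strand, so reads from the stretch they share, too, cannot be told apart. Slc30a1 and Slc39a8 likewise overlap genes on the other strand. Slc30a1, the exporter that MTF1 induces along with Mt1 and Mt2, had 3.62, 3.36 and 2.88 FPKM in the libraries labelled Mutant, against 3.58, 3.45 and 3.26 FPKM in the Flox_control libraries. The groups overlapped, and as for Mt1 and Mt2 the lowest library was that labelled Mutant 3. Its log2 difference was -0.050 ± 0.093 (SE), with a 95% interval of -0.27 to 0.17 (limma, Benjamini-Hochberg adjusted p = 0.919). In the list of genes linked to MTF1, which holds Slc30a1 and the glutathione synthesis gene Gclc among 8 tested members, 0 rose and 0 fell. Of all tested genes, 0.607% were called. The median log2 difference of the list was -0.047, beside 0.0015 over all tested genes. The list was not sorted by the direction in which MTF1 acts on each gene. Its median therefore cannot show whether the action of MTF1 differed. The members nearest to the threshold were Csrp1, with 103.7, 101.2 and 106.0 FPKM in the libraries labelled Mutant against 105.7, 113.3 and 111.6 FPKM in the Flox_control libraries, and Gclc, with 9.88, 8.28 and 6.47 FPKM against 9.83, 8.39 and 10.2 FPKM. Neither had groups that were apart.

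Among the exporters, Slc30a5, which loads zinc into the secretory pathway, where alkaline phosphatase takes it up, was the most abundant. It had 25.6, 22.95 and 27.2 FPKM in the libraries labelled Mutant, against 23.4, 24.8 and 25.1 FPKM in the Flox_control libraries. The groups overlapped, with both the lowest and the highest library among those labelled Mutant, and the log2 difference was 0.043 ± 0.075 (SE; 95% interval -0.13 to 0.22, limma, Benjamini-Hochberg adjusted p = 0.914). Of the 10 exporter genes of the ZnT list, 6 passed the filter, and 0 rose and 0 fell. Their log2 differences ran from -0.066 for Slc30a4 to 0.078 for Slc30a7, with a median of -0.027. Slc30a4, Slc30a6, Slc30a7 and Slc30a9 had means of 8.46, 6.61, 6.29 and 15.9 FPKM in the libraries labelled Mutant and 8.89, 6.84, 5.88 and 16.04 FPKM in the Flox_control libraries. Slc30a2, Slc30a3 and Slc30a10 did not pass the filter, with a highest value of 1.15 FPKM in any library, and Slc30a8, known from pancreatic islets, was listed at 0 in all 6. Summed over the 10 genes, the exporters had 68.1, 63.9 and 69.5 FPKM in the libraries labelled Mutant and 64.5, 67.1 and 68.6 FPKM in the Flox_control libraries.

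Of the importers, Slc39a13 was the member whose groups did not overlap. This importer of the secretory pathway, whose loss in mice disturbs bone and connective tissue, had 86.3, 86.2 and 99.1 FPKM in the libraries labelled Mutant, against 76.8, 78.6 and 78.3 FPKM in the Flox_control libraries. All 3 libraries labelled Mutant were above the 3 Flox_control libraries, by a small margin, with means of 90.5 ± 7.40 and 77.9 ± 0.98 FPKM (SD, n = 3 each), or 1.16 times as much. Its log2 difference was 0.21 ± 0.069 (SE; 95% interval 0.048 to 0.37), short of the threshold (limma, Benjamini-Hochberg adjusted p = 0.31), and 7.45% of all tested genes had a difference at least as large and positive. An exact permutation test of its means, two-sided, gave p = 0.1, the smallest that 3 values against 3 allow. The gene, at chr2:91061791-91070417 on the minus strand, overlaps Psmc3 on the plus strand, a proteasome subunit gene with 95.6 ± 5.36 FPKM in the libraries labelled Mutant and 93.2 ± 4.76 FPKM in the Flox_control libraries (SD, n = 3 each).

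Slc39a14 and Slc39a8, importers of the cell surface, had overlapping groups. Slc39a14, which is expressed in growth plate cartilage, had 22.7, 21.1 and 23.4 FPKM in the libraries labelled Mutant, against 19.2, 24.0 and 20.2 FPKM in the Flox_control libraries. The highest library was Flox_control 2, and the log2 difference was 0.087 ± 0.092 (SE; 95% interval -0.13 to 0.304, limma, Benjamini-Hochberg adjusted p = 0.833). Slc39a8, the importer tied to MTF1 and matrix-degrading enzymes in mouse cartilage, was low, at 2.02, 1.90 and 2.40 FPKM in the libraries labelled Mutant, against 1.90, 1.92 and 2.04 FPKM in the Flox_control libraries. Its log2 difference was 0.069 ± 0.0995 (SE; 95% interval -0.17 to 0.304, limma, Benjamini-Hochberg adjusted p = 0.889). Cartilage markers, listed because both importers have known roles there, summed to 629.4, 500.1 and 620.4 FPKM in the libraries labelled Mutant, against 1943, 1937 and 1005 FPKM in the Flox_control libraries. With 3 of 9 tested markers lower past the threshold and 0 higher in limma with Benjamini-Hochberg adjustment, where 0.0835% of all tested genes were lower, the summed levels were apart, and their part in the values of Slc39a14 and Slc39a8 was not tested. The number of cartilage markers that fell was 4 without Flox_control 3, 1 without the library labelled Mutant 2 or Mutant 3, and 0 without any of the others. Here and throughout, fewer cells of a type and less RNA per cell cannot be told apart in tissue RNA.

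The remaining importers gave 1 further gene with groups that did not overlap. Slc39a1, an importer of the cell surface, had 78.7, 77.6 and 80.02 FPKM in the libraries labelled Mutant, against 68.3, 71.3 and 69.1 FPKM in the Flox_control libraries. Its 3 values in the libraries labelled Mutant lay above every control, with a log2 difference of 0.18 ± 0.05 (SE; 95% interval 0.059 to 0.295) that stayed short of the threshold (limma, Benjamini-Hochberg adjusted p = 0.237). Of the 50-base stretches of its transcript, 21.8% also occur in the transcript of its pseudogene Slc39a1-ps, so its value may share reads with that copy. Slc39a7, an importer of the endoplasmic reticulum and Golgi, was the most abundant of the family, at 121.4, 116.3 and 144.1 FPKM in the libraries labelled Mutant and 123.0, 142.6 and 127.8 FPKM in the Flox_control libraries, with overlapping groups. Slc39a3, Slc39a6, Slc39a9, Slc39a10 and Slc39a11 had log2 differences of -0.0088, -0.093, 0.048, 0.039 and -0.050, all with overlapping groups. Slc39a2, Slc39a4, Slc39a5 and Slc39a12 did not pass the filter, with a highest value of 1.31 FPKM in any library. Across the 14 importer genes the summed level was 365.4, 355.4 and 405.4 FPKM in the libraries labelled Mutant and 339.5, 378.1 and 355.2 FPKM in the Flox_control libraries.

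**Figure D3:**
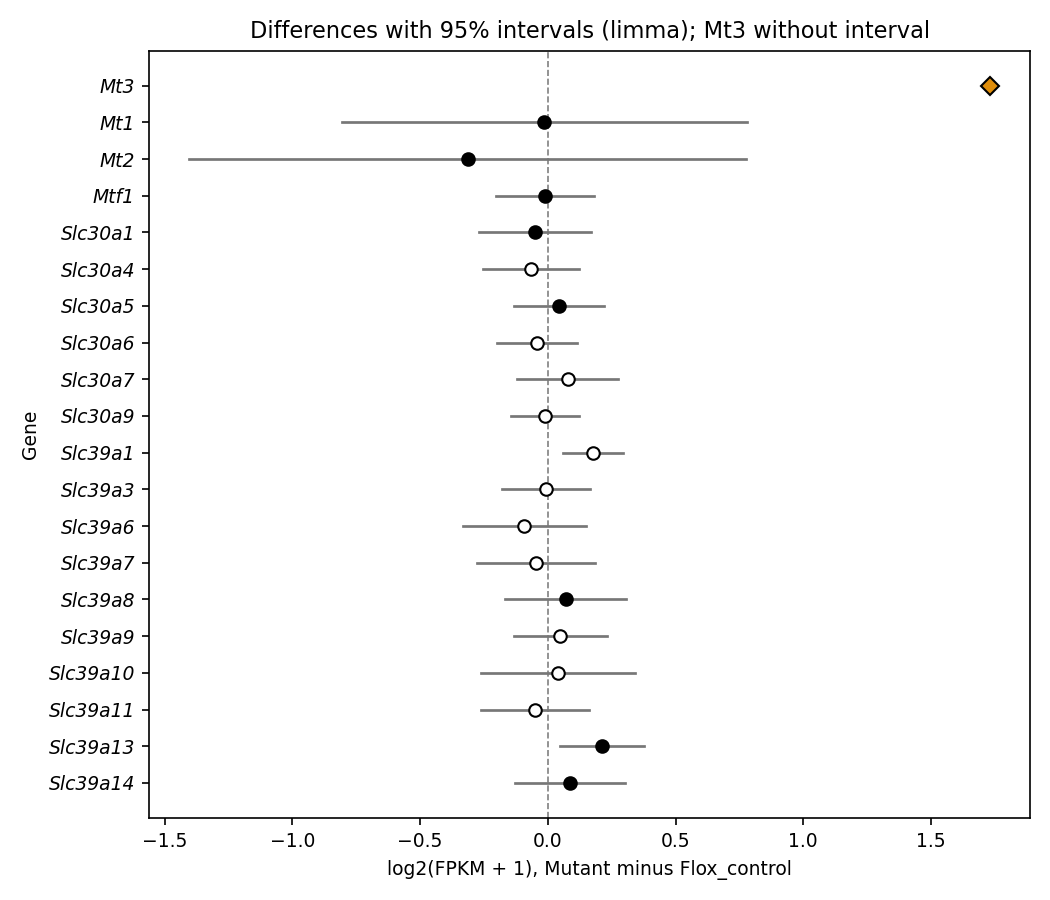
Difference on the log2(FPKM + 1) scale, libraries labelled Mutant minus Flox_control (n = 3 each), for the 3 tested metallothioneins, Mtf1 and the 16 tested zinc transporters, with 95% intervals from limma; filled points are the 9 genes of the set, open points other transporters, and Mt3 (orange) has no interval because it was chosen for this difference. The intervals of Slc39a1 and Slc39a13 lie above 0 before adjustment, and those of the other tested genes include 0.

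In order of level, the 9 genes ran from Mt1, with a mean of 186.5 FPKM over the 6 libraries, through Mt2 at 131.0, Slc39a13 at 84.2, Mt3 at 34.8, Slc30a5 at 24.8, Slc39a14 at 21.8, Slc30a1 at 3.36 and Mtf1 at 2.48 to Slc39a8 at 2.03. Most neighbours kept their order in 6 of 6 libraries. Mt2 was above Slc39a13 in 5 of 6, the exception being the library labelled Mutant 3, and Mtf1 was above Slc39a8 in 5 of 6, with the same exception. Mt3 was above Slc30a5 in 3 of 3 libraries labelled Mutant and in 0 of 3 Flox_control libraries.

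The tested genes most like Mt3 over the 6 libraries, by Pearson correlation of log2(FPKM + 1), were Hsd3b7, an enzyme of bile acid synthesis (r = 0.997), Fermt3, an integrin activator of blood cells (r = 0.997), Was, an actin regulator of blood cells (r = 0.994), Ncf4, a subunit of the phagocyte oxidase (r = 0.994), and Itgb2, the integrin beta-2 chain of leukocytes (r = 0.994). As Mt3 separates the groups, so do these 5 genes, and with 6 libraries the measure is a description only. Ncf4 had 6.16, 6.29 and 4.997 FPKM in the libraries labelled Mutant, against 2.80, 3.27 and 2.24 FPKM in the Flox_control libraries. Itgb2 had 6.69, 7.60 and 6.55 FPKM in the libraries labelled Mutant, against 3.897, 4.31 and 3.26 FPKM in the Flox_control libraries. Both had the order of Mt3 within each group, with Mutant 2 and Flox_control 2 the highest libraries of their groups. As both were picked for likeness to Mt3 over these same 6 libraries, the shared order is no separate result.

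Osteoclast markers, like Mt3, were higher in the libraries labelled Mutant. Their order within those libraries depended on the measure. The sum was highest in the library labelled Mutant 3, where Mt3 was lowest, whereas the mean of log2(FPKM + 1) was lowest there. That mean was 4.71, 4.61 and 4.58 in the libraries labelled Mutant 1, 2 and 3. The summed level was 1379.6, 1305 and 1416 FPKM in the libraries labelled Mutant, against 533.3, 571.9 and 565.9 FPKM in the Flox_control libraries, and 7 of 10 tested markers rose in limma with Benjamini-Hochberg adjustment, where 0.524% of all tested genes did. All 10 had groups that did not overlap and were higher, as did 9.34% of all tested genes, and their part in the values of Mt3 was not tested. Leaving out any 1 library gave 5 to 7 osteoclast markers that rose, the lowest number without the library labelled Mutant 1. Macrophage markers, of which 2 of 8 tested rose (1 without any 1 library), summed to 427.8, 453.8 and 449.1 FPKM in the libraries labelled Mutant, against 344.3, 386.3 and 339.7 FPKM in the Flox_control libraries. The 2 that rose were Cd68 and Csf1r. Groups apart and higher were seen for these and Adgre1, whereas the groups of C1qa, C1qb, C1qc, Mrc1 and Cd163 overlapped. The list as a whole therefore did not rise evenly. Neutrophil markers, with 0 of 5 past the threshold, summed to 100.4, 78.3 and 47.6 FPKM in the libraries labelled Mutant, against 39.1, 48.0 and 55.04 FPKM in the Flox_control libraries. The macrophage sums were apart and the neutrophil sums overlapped, and the part of either was not tested. Higher values were not particular to these lists. With all 6 libraries, 1 of 6 tested endothelial markers and 1 of 9 tested osteoblast markers rose. Groups apart and higher were seen for 5 endothelial and 5 osteoblast markers, beside 9.34% of all tested genes. Another 2 osteoblast markers had groups apart and lower. The part of these cells in the values of Mt3 was not tested. Neurons are a known source of Mt3. The summed level of their markers was 63.5, 143 and 42.9 FPKM in the libraries labelled Mutant, against 90.9, 87.8 and 89.5 FPKM in the Flox_control libraries, and 0 of 8 tested markers passed the threshold in either direction. The sums overlapped, while each of the 8 markers had a lower mean log2 value in the libraries labelled Mutant. Groups that did not overlap and were lower there were seen for 1 of them, Eno2, and for 6.79% of all tested genes. Without the library labelled Mutant 3, the mean was higher for 3 of the 8, and for 1 without the library labelled Mutant 1, Flox_control 1 or Flox_control 3. Markers of astrocytes and other glia summed to 38.9 to 66.4 FPKM in the libraries labelled Mutant and 58.8 to 67.6 FPKM in the Flox_control libraries, with 0 of 7 tested markers past the threshold. Of these 7, S100b and Slc1a3 had groups that did not overlap and were lower in the libraries labelled Mutant, beside the same 6.79%. The part of neurons and glia in the values of Mt3 was not tested.

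The genes most like Mt1 were others. Over the 6 libraries they were Zfp697 (r = 0.994), Tmem8c, an older name of the gene for the muscle fusion protein myomaker (r = 0.992), Unc45b, a myosin chaperone of muscle (r = 0.986), Zdhhc13 (r = 0.982) and Slc25a24, a mitochondrial carrier (r = 0.98). Tmem8c had 17.6, 18.9 and 9.49 FPKM in the libraries labelled Mutant, against 20.6, 13.1 and 13.5 FPKM in the Flox_control libraries. It was lowest in the library labelled Mutant 3 and highest in Flox_control 1, as Mt1 was. Muscle markers showed the same extremes, with sums of 10769, 14173 and 8425 FPKM in the libraries labelled Mutant, against 16252, 9781 and 11443 FPKM in the Flox_control libraries. Of these markers, 0 of 7 were past the threshold in either direction, where 0.607% of all tested genes were. Red cell genes, too, were lowest in the library labelled Mutant 3, at a sum of 2698 FPKM, against 10253 and 11946 FPKM in the other two libraries labelled Mutant and 4846 to 6911 FPKM in the Flox_control libraries. The library labelled Mutant 3 also had the lowest relative depth, at 0.703 of Flox_control 1. The part of muscle, red cells or depth in the values of Mt1 and Mt2 was not tested.

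Several signals known to act on Mt1 and Mt2 were read from lists of their target genes. Glucocorticoid-induced genes summed to 605.4, 431.8 and 354.9 FPKM in the libraries labelled Mutant, against 576.6, 309.9 and 424.7 FPKM in the Flox_control libraries. The groups overlapped, with the library labelled Mutant 1 highest and Flox_control 2 lowest. In the glucocorticoid list 0 of 10 tested genes passed, in the hypoxia list 0 of 12, in the oxidative stress list 0 of 9, in the heat shock list 0 of 6 and in the acute phase list 0 of 7 (limma with Benjamini-Hochberg adjustment). Of all tested genes, 0.607% passed, and at that share lists of this size would hold few calls or none. The counts therefore do not show whether these signals differed. The median log2 differences of these lists, in that order, were 0.082, -0.078, -0.068, -0.17 and 0.17. The members with the smallest p in each list were Dusp1 and Pdk4 for glucocorticoids (adjusted p = 0.686 and 0.755 in limma), Nqo1 and Srxn1 for oxidative stress (adjusted p = 0.153 and 0.537 in limma), Hsph1 and Hspa1a for heat shock (adjusted p = 0.265 and 0.597 in limma), Stat3 and Socs3 for the acute phase (adjusted p = 0.297 and 0.544 in limma), and Ndrg1 and Vegfa for hypoxia (adjusted p = 0.796 and 0.802 in limma). The chaperone gene Hsph1 had 13.4, 13.8 and 11.6 FPKM in the libraries labelled Mutant, against 15.6, 17.0 and 15.07 FPKM in the Flox_control libraries. Of the 6 heat shock genes, 2 had groups that did not overlap and were lower in the libraries labelled Mutant, where 6.79% of all tested genes did so. All 6 had a lower mean log2 value in those libraries, as did 6523 of the 13180 tested genes.

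Genes downstream of zinc import and zinc-dependent enzymes were counted as well. Of the 3 tested matrix enzymes placed under Slc39a8 and MTF1 in mouse cartilage, Mmp9 and Mmp13 rose and Adamts5 did not pass (limma with Benjamini-Hochberg adjustment), and both calls held without any 1 of the 6 libraries. The gelatinase gene Mmp9 had 374.6, 349.1 and 383.8 FPKM in the libraries labelled Mutant, against 83.4, 117.9 and 113.6 FPKM in the Flox_control libraries, and both Mmp9 and Mmp13 are made by bone cells as well. These increases stood beside overlapping values of Slc39a8 and Mtf1, and the part of either gene in them was not tested. Adamts5, the aggrecan-cleaving protease, had 11.8, 12.9 and 11.8 FPKM in the libraries labelled Mutant, against 10.8, 10.85 and 10.45 FPKM in the Flox_control libraries, without overlap (limma, Benjamini-Hochberg adjusted p = 0.375). In the list of zinc enzymes of bone, the same pair were the 2 of 9 that rose, where 0.524% of all tested genes did. Alpl, the alkaline phosphatase supplied with zinc by Slc30a5, had 274.6, 260.7 and 328.4 FPKM in the libraries labelled Mutant, against 185.8, 198.6 and 227.1 FPKM in the Flox_control libraries, without overlap and without passing (limma, Benjamini-Hochberg adjusted p = 0.15).

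The handling of other metals gave 1 call. Tfrc, the transferrin receptor that takes up iron, had 17.2, 15.3 and 15.5 FPKM in the libraries labelled Mutant, against 10.3, 10.3 and 9.64 FPKM in the Flox_control libraries. Its log2 difference of 0.62 ± 0.068 (SE) passed the threshold (limma, Benjamini-Hochberg adjusted p = 0.0166), but the call was lost whichever of the 6 libraries was left out (limma, adjusted p from 0.0521 to 0.0738). Tfrc was the 1 of 10 tested iron and manganese genes to pass, where 0.607% of all tested genes did, with a median of 0.084 over the list. Of 9 tested copper genes, 0 passed, with a median of 0.081. Among them Cp, the copper-carrying ferroxidase ceruloplasmin, had 18.4, 18.5 and 17.5 FPKM in the libraries labelled Mutant, against 13.2, 15.02 and 15.6 FPKM in the Flox_control libraries. Atox1, the copper chaperone, had 195.1, 199.8 and 197.7 FPKM in the libraries labelled Mutant, against 156.8, 181.0 and 164.0 FPKM in the Flox_control libraries. The groups of both genes did not overlap. In all, 3 of the 9 tested copper genes had groups apart and higher in the libraries labelled Mutant, where 9.34% of all tested genes did.

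**Figure D4:**
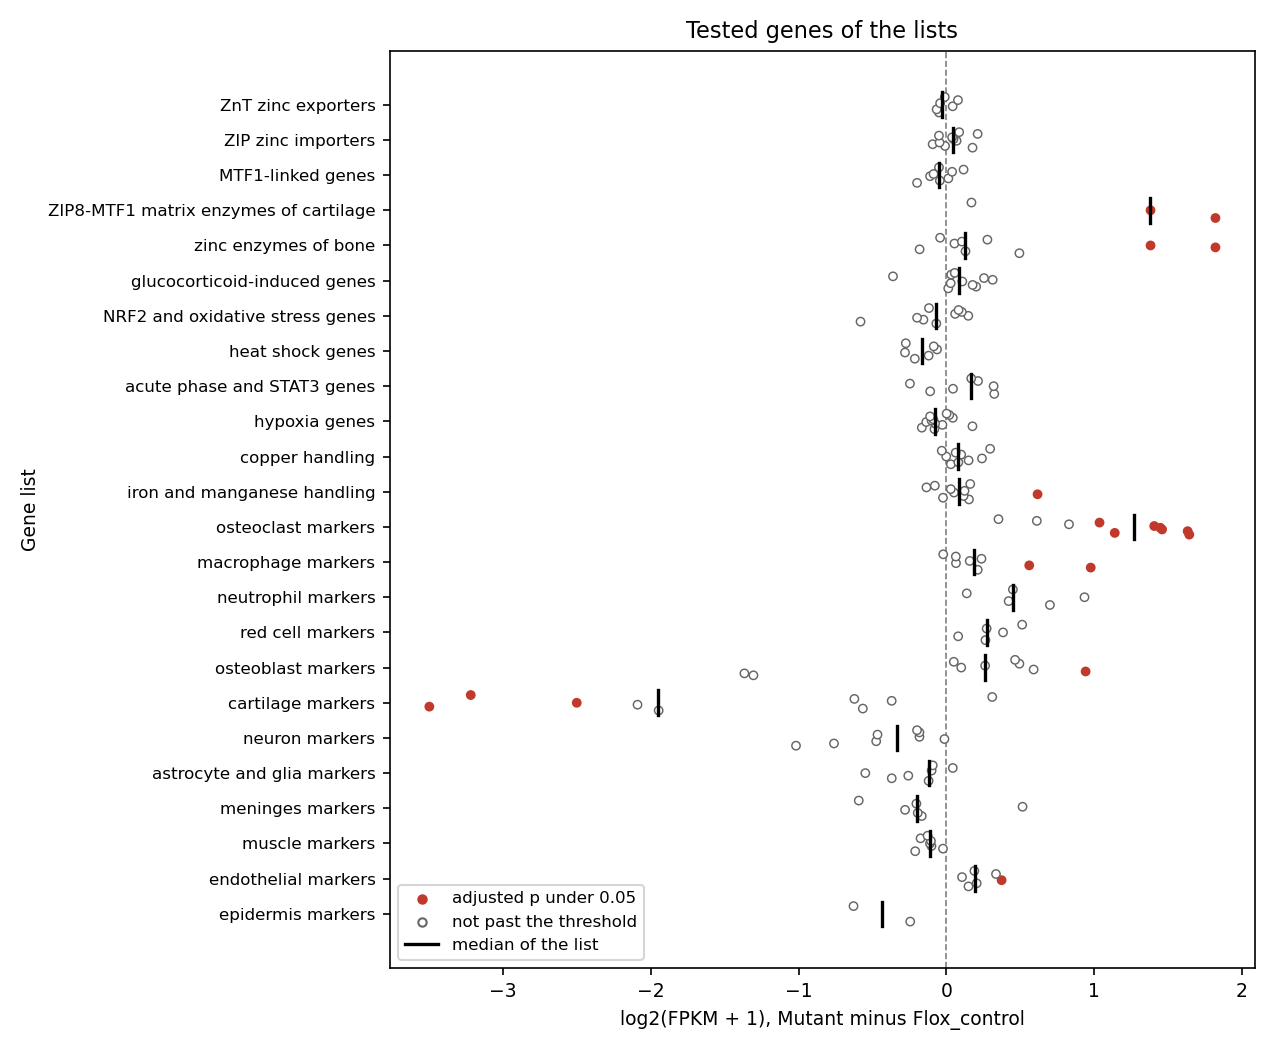
Difference on the log2(FPKM + 1) scale, libraries labelled Mutant minus Flox_control, for each tested gene (points) of the lists of zinc transporters, zinc-linked and stress-linked genes, metal handling and cell type markers, with a black line at the median of each list and red points past an adjusted p of 0.05 in limma. The transporter and MTF1-linked lists lie close to 0, with medians from -0.047 to 0.044, whereas the osteoclast markers have a median of 1.27 and the cartilage markers one of -1.95.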

How the data were processed

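Total RNA of newborn calvaria was made into libraries with a TruSeq stranded mRNA kit, per the labels' protocols, in 3 samples labelled Mutant and 3 labelled Flox_control, grouped by title. The deposited values are FPKM computed by the authors; the submitters' processing notes name mm10 and the tools Cufflinks 2.2.1, SAMtools 0.1.19, TopHat2 2.0.13 and Bowtie2 2.2.3, without giving their roles. Annotation, options and strand setting: not given in the sources used here. Read totals are unknown; the smallest values give a relative depth of 0.703 to 1.00, with Flox_control 1 set to 1 and the library labelled Mutant 3 lowest. Short transcripts such as those of the metallothioneins have less certain FPKM.

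Tests took genes averaging 1 FPKM or more, on log2(FPKM + 1), which understates changes of low genes, and used limma 3.58.1 in R 4.3.3 (eBayes with trend, group as the 1 term, two-sided, Benjamini-Hochberg over 13180 genes at 0.05), after a test on simulated data. Ratios are of mean FPKM. The members and lists were chosen with earlier results of these data known. Genes named are the members, all ZnT and ZIP transporters, list members past the threshold or among the 2 smallest p (cell type markers are mostly given by counts), and the 5 most like Mt3 and Mt1. Alpl, Adamts5, Eno2, S100b, Slc1a3 and the named macrophage markers were added after their values were seen. Alternatives were a pseudocount of 0.1, other filters, scaling and eBayes settings, array weights, a replicate block, a sex term and leaving out each library.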

Additional observations from a re-analysis of the deposited data

How the results depend on the processing

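The members other than Mt3 and the zinc transporters gave 0 calls under each of the 16 alternatives run, of which the filter at a mean of 5 FPKM tested 5 of the 8 members, without Mtf1, Slc30a1 and Slc39a8, and 14 transporters (limma with Benjamini-Hochberg adjustment; at an unadjusted p under 0.05, 1 or 2 of the members and 2 or 3 of the transporters). The difference of Mt3 stayed between 1.5 and 1.97 on the log2 scale. Mt3 was chosen for this difference in these same libraries, so that range is a description and no separate result. The number of genes called among all tested, 80 with all libraries, was 16 with no filter on low values, 183 with array weights, 25 with the replicate block and 43 with a sex term, and between 16 and 44 when 1 library was left out. Small differences changed sign. Mt1 was at 0.0018 with quantile normalization, 0.22 with array weights and 0.14 with the sex term, and from -0.21 to 0.37 when 1 library was left out. Mt2 was at 0.013 with array weights, and from -0.62 to 0.24 when 1 library was left out. Mtf1 was at 0.0019 with quantile normalization and 0.0017 with the sex term, and Slc30a1 at 0.023 with array weights. When 1 library was left out, Mtf1 ran from -0.027 to 0.0090, Slc30a1 from -0.105 to 0.020 and Slc30a5 from -0.0105 to 0.106.

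The replicate numbers come from the titles, which do not say whether same-numbered libraries belong together. Same-numbered libraries deviated from their group means with correlations of 0.016, -0.071 and 0.015. With so few libraries, these values cannot show whether a litter or batch was shared. The block gave differences of -0.014 for Mt1 and -0.31 for Mt2, as without it. Y-linked genes exceeded Xist in 2 of 3 libraries labelled Mutant and 1 of 3 Flox_control libraries. Depth is unknown in absolute terms, which leaves the precision of low values unknown; genes averaging under 1 FPKM over the libraries in a fit were tested only with no filter.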
